A study of Homo sapiens with 9 samples.

Results

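The cells of this comparison were ALL-SIL, an established T-ALL line (T-ALL is T cell acute lymphoblastic leukemia). The question was which transcripts differed when *PHF6* was lowered with the siRNA that the sample labels call siRNA2. It set the 3 samples labelled *PHF6* siRNA2 against the 3 labelled control siRNA, so 6 of the 9 samples in the series were compared, and samples with the same replicate number were treated as pairs. Both groups were the same line, had been electroporated with an siRNA, and carried no other treatment or allele in their labels. Most labels and the methods of the study give collection at 96 h after electroporation, whereas a free-text label gives 72 h. The replicates are described as independent biological replicates. The control was a non-targeting siRNA, and *PHF6* was targeted with a single siRNA in one group and with a pool of siRNAs in the other, but which of these is siRNA2 is not stated in the sources used here. RNA of each sample was labelled with Cy3 and hybridised to its own one-colour Agilent array, which carried custom probes for long non-coding RNAs (lncRNAs) beside probes for protein-coding genes. Values are the authors' normalised log2 intensities, on which a difference of 1 is a doubling. A probe was tested when the scanner software had marked it as well above background on at least 3 of the 6 arrays, and 32443 of 57176 probes were. They covered 14408 of the 19717 genes that could be named, and each gene is given by its brightest tested probe unless another is named.

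*PHF6* is an X-linked gene for a plant homeodomain finger protein of the nucleus that binds the NuRD chromatin remodelling complex, and its inactivating mutations recur in T-ALL. T-ALL arises from immature T cells of the thymus, and most cases carry activated NOTCH1, a receptor whose cleaved intracellular part switches on genes such as *DTX1*, *PTCRA* and *IL7R*. An siRNA guides the cell's silencing machinery to matching transcripts, and it can also lower transcripts other than the one it was designed against.

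*PHF6* was lowered on every siRNA2 array. Its probe (A_23_P171385) read 11.08, 11.16 and 10.88 on the control arrays of replicates 1, 2 and 3, and 9.23, 9.31 and 9.16 on the siRNA2 arrays. The groups did not overlap, and the difference within the pairs was almost the same each time, at -1.85, -1.85 and -1.73. *PHF6* fell by 1.81 on the log2 scale (limma with the replicate number as a block, SE, the standard error, 0.10, adjusted p = 0.000205), a 3.50-fold lower signal. It passed the threshold under all 19 alternative settings that were tried, with an adjusted p between 7.86e-06 and 0.0174.

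Over all probes, limma called 545 at an adjusted p under 0.05, which is 1.68% of those tested, and 6550 had an unadjusted p under 0.05. Of the called probes 329 were higher with siRNA2 (1.01% of those tested) and 216 were lower (0.666%), and each of the 545 moved the same way in all 3 pairs. Only 37 of them changed by more than 1 on the log2 scale, 22 higher and 15 lower. At the level of genes 232 of 14408 were called (1.61%), 102 higher (0.708%) and 130 lower (0.902%), and the median log2 fold change of all tested genes was -0.02. Called or not, 7879 of the 14408 genes were lower, and 2642 had an unadjusted p under 0.05. The control and siRNA2 arrays did not overlap for 139 of these 232 genes and for 1386 of all 14408 genes (9.62%). Because the calls were made on the same arrays, the 139 and the shared direction of the 545 add no support. An exact permutation test of 3 arrays against 3 cannot give a p below 0.10, and one over 3 pairs cannot go below 0.25.

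**Figure D1:**
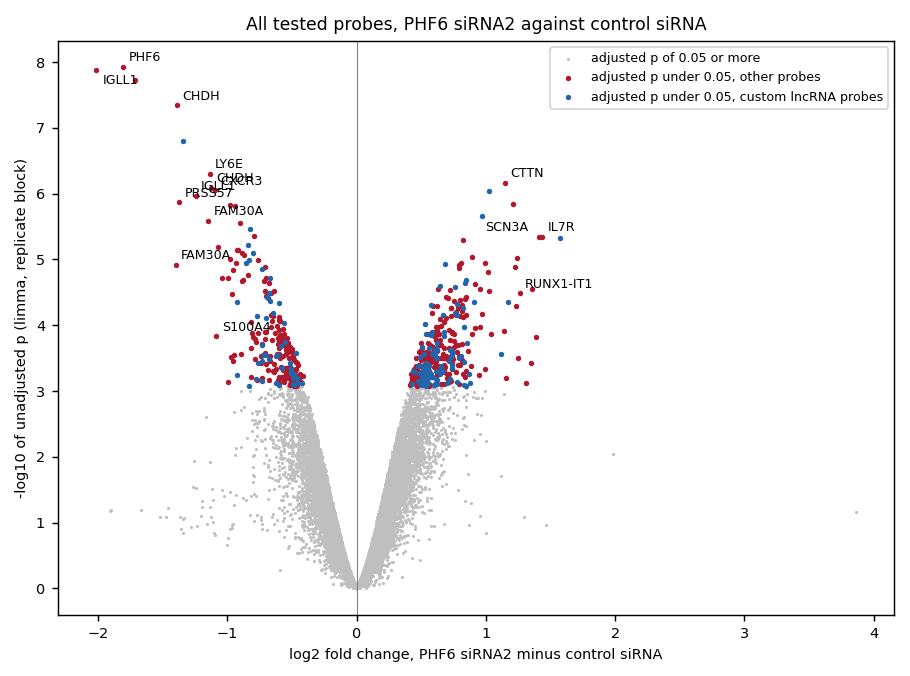
All 32443 tested probes, with the log2 fold change of *PHF6* siRNA2 against control siRNA on the horizontal axis and -log10 of the unadjusted limma p on the vertical axis. The 545 called probes are in red, or in blue for custom lncRNA probes, and *PHF6* and the lower *IGLL1* probe stand at the top left. The grey point at 3.87 is a lncRNA probe (CUST_8682_PI427704219) that read 16.36 on the siRNA2 array of replicate 1 and between 5.18 and 5.67 on the other 5 arrays.

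The size of this list depended on the pairing, on single replicates, on the arrays in the fit, on the normalisation and on the filter. Limma took the spread from all 9 arrays, siRNA1 included, and with only the 6 arrays compared 45 probes were called. With the signal scaled to its 75th percentile 78 were called, and 71 without a filter. When the block was dropped, 4 probes passed and 1966 were under 0.05 before adjustment. The 4 were *PHF6*, 1 probe of *IGLL1*, the probe A_33_P3395675 and a lncRNA probe, all described below. With the block, 11 probes were called without replicate 1, 4 without replicate 2 and 576 without replicate 3. Without single arrays the count was 39 without control replicate 1, 24 without siRNA2 replicate 1, 102 without control replicate 2, 460 without siRNA2 replicate 2, 1153 without control replicate 3 and 206 without siRNA2 replicate 3. Higher probes were 329 of the 545, but 158 of the 460 without siRNA2 replicate 2. Replicates 1 and 2 of each group lay on one slide and replicate 3 on another, so the differences of single pairs given in the text are also the values within each slide. Among the 329 probes called higher the median difference was 0.77 in replicate 1, 0.64 in replicate 2 and 0.47 in replicate 3. Among the 216 called lower it was -0.68, -0.57 and -0.62.

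The 12 largest falls of named genes were those of *PHF6*, *FAM30A*, *CHDH*, *PRSS57*, *IGLL1*, *LY6E*, *CXCR3*, *S100A4*, *PTP4A3*, *RXRA*, *ALDH3A1* and *DPEP1*. *IGLL1* encodes a part of the surrogate light chain with which precursor B cells build their first receptor. Its brightest probe (A_24_P239076) read 11.71, 11.61 and 11.46 on the control arrays and 10.56, 10.53 and 9.95 on the siRNA2 arrays. The groups did not overlap, and the log2 fold change was -1.24 (limma, SE 0.12, adjusted p = 0.00319). A second probe of the gene (A_23_P120812) read 12.04, 12 and 11.81 against 10.11, 9.90 and 9.79. It fell by 2.02 on the log2 scale (limma, adjusted p = 0.000205), more than any other called probe. The probe A_33_P3395675, which the array assigns to transcript ENST00000390323 and which was singled out after its values were seen, read 11.99, 11.92 and 11.69 against 10.36, 10.19 and 9.90. Another probe for that transcript (A_24_P605563) differed by 0.01 (limma, adjusted p = 0.994), so the pair of probes did not move together.

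*CHDH*, the mitochondrial choline dehydrogenase, read 9.62, 8.93 and 9.57 with control siRNA and 8.36, 7.54 and 8.06 with siRNA2. Replicate 2 was lowest in both groups and the fall was alike in the 3 pairs, which gave a log2 fold change of -1.39 (limma, SE 0.09, adjusted p = 0.000364). *PRSS57*, a serine protease of neutrophil granules, read 14.74, 14.53 and 14.14 against 13.71, 13.09 and 12.50. It fell by 1.37 on the log2 scale (limma, adjusted p = 0.00333), and the fall was 1.03 in replicate 1 and larger in the other pairs. *LY6E*, an interferon-inducible surface protein, read 11.23, 10.68 and 11.14 against 10.18, 9.58 and 9.89, without overlap. *CXCR3*, a receptor for interferon-induced chemokines, read 9.21, 7.91 and 8.85 against 8.21, 6.62 and 7.87. Here the groups overlapped, because replicate 2 was low in both, yet the differences of the pairs were -1.01, -1.30 and -0.98 and the log2 fold change was -1.09 (limma, adjusted p = 0.00293).

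*FAM30A*, a gene for a non-coding transcript, fell by 1.40 on the log2 scale and was well above background on 2 of the 3 siRNA2 arrays. The other genes among the 12 fell by 0.98 to 1.08 on this scale. They were *S100A4*, a calcium-binding protein of motile cells, the phosphatase gene *PTP4A3*, the retinoid X receptor gene *RXRA*, the aldehyde dehydrogenase gene *ALDH3A1*, and *DPEP1*, which encodes a membrane dipeptidase. Their arrays did not overlap except those of *ALDH3A1*. Of the 11 genes besides *PHF6*, 3 passed without replicate 1 (*CHDH*, *LY6E* and *PRSS57*), 0 without replicate 2, where the adjusted p was between 0.06 and 0.0794, and 10 without replicate 3. Without the block none of the 11 passed with these probes, and the adjusted p was between 0.145 and 0.824.

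**Figure D2:**
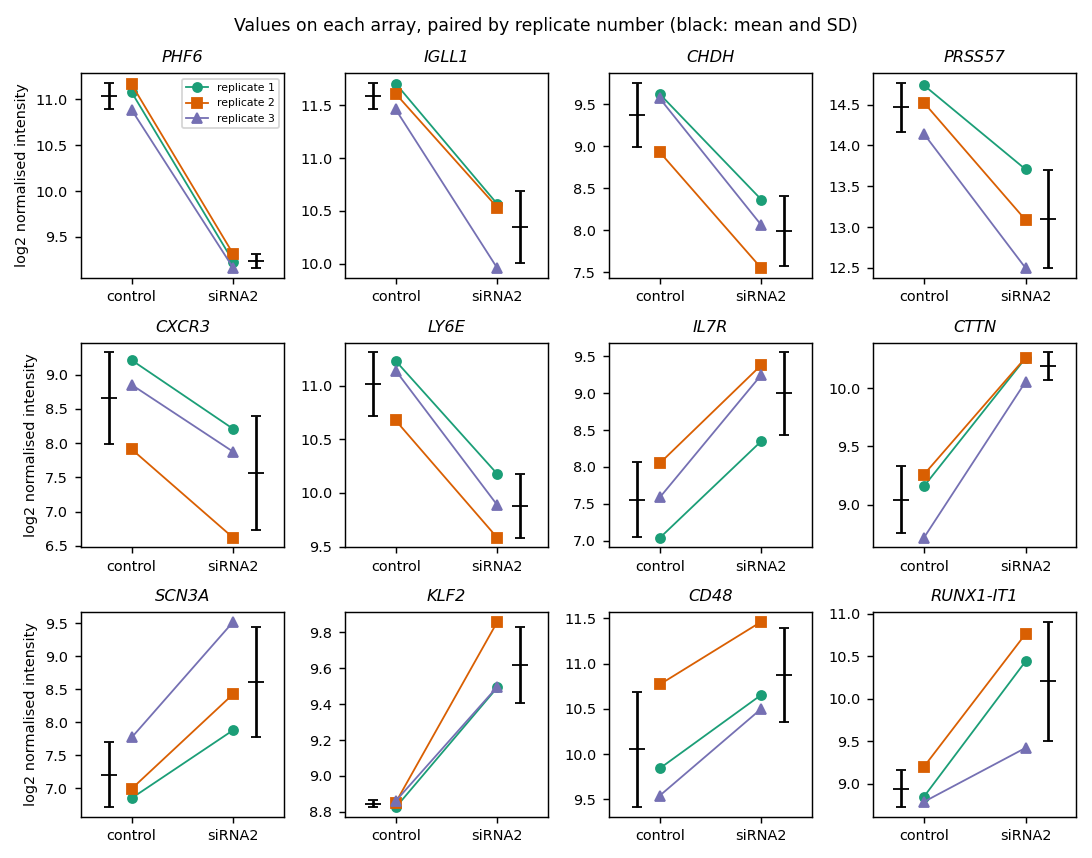
Normalised log2 intensity of 12 genes on each array, with control siRNA at the left and *PHF6* siRNA2 at the right of each panel and lines joining the arrays of one replicate number. Black marks give the mean and SD of 3 arrays, each panel has its own scale, and the slope is downward in every pair for *PHF6*, *IGLL1*, *CHDH*, *PRSS57*, *CXCR3* and *LY6E* and upward in every pair for the other 6.

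The 12 largest rises were those of *IL7R*, *SCN3A*, *GUCY2F*, *CCR2*, *RUNX1-IT1*, *ASAP1-IT1*, *SND1-IT1*, *CTTN*, *PRR20B*, *HHIP-AS1*, *ANKRD20A5P* and *ARPP21*. *IL7R* encodes the alpha chain of the receptor for interleukin 7, a growth factor of developing T cells. It read 7.04, 8.05 and 7.59 with control siRNA and 8.35, 9.38 and 9.25 with siRNA2. Each siRNA2 array lay above all 3 control arrays, and the log2 fold change was 1.44 (limma, SE 0.16, adjusted p = 0.00656). *CTTN* encodes cortactin, a protein of the cortical actin network. It read 9.15, 9.26 and 8.71 against 10.26, 10.26 and 10.05, and rose by 1.15 on the log2 scale (limma, SE 0.10, adjusted p = 0.00293). The siRNA2 arrays of *CTTN* were close together, and its rise was largest in replicate 3.

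*SCN3A*, which encodes a voltage-gated sodium channel, read 6.85, 6.99 and 7.77 with control siRNA and 7.89, 8.43 and 9.53 with siRNA2, with replicate 3 highest in both groups. *CCR2*, a chemokine receptor of monocytes and some T cells, read 5.67, 6.45 and 5.71 against 6.30, 7.67 and 7.91, and the groups overlapped. *GUCY2F*, a guanylate cyclase of the retina, was well above background on only 1 of the 3 control arrays, and it read 5.49, 5.18 and 5.12 against 6.52, 6.18 and 7.25. The siRNA2 arrays of *GUCY2F* lay above all its control arrays. *PRR20B* belongs to a family of nearly identical copies, which 1 probe cannot tell apart, and *ANKRD20A5P* is a pseudogene with related copies. Their log2 fold changes were 1.14 and 0.97.

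Among genes with smaller rises were *KLF2* and *CD48*, the latter singled out after its values were seen. *KLF2* is a transcription factor that keeps mature T cells quiescent and controls their trafficking receptors. It read 8.82, 8.85 and 8.86 on the control arrays and 9.49, 9.86 and 9.50 on the siRNA2 arrays, a log2 fold change of 0.77 (limma, adjusted p = 0.0325). The control arrays were almost alike, and all siRNA2 arrays lay above them. *CD48*, a surface ligand of the CD2 family, read 10.05 ± 0.64 against 10.87 ± 0.52 (SD, n = 3 each), and was higher by 0.81, 0.69 and 0.96 in the pairs. It rose by 0.82 on the log2 scale (limma, adjusted p = 0.00685), and its groups overlapped because replicate 2 was high in both. Of the 12 genes with the largest rises, 2 passed without replicate 1 (*IL7R* and *SCN3A*), 0 without replicate 2, where the adjusted p was between 0.0605 and 0.111, and 12 without replicate 3. Without the block 0 passed, and the adjusted p was between 0.131 and 0.780.

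A set of 13 genes takes in those the publication treats by name, and 11 of these were tested and 3 called, beside 1.61% of all genes. The called genes were *PHF6*, *IL7R* and *PTCRA*, which encodes the alpha chain of the precursor T cell receptor. Some of them were picked from these same samples, so the count is not independent evidence of their direction. *PTCRA* read 8.62, 8.96 and 8.17 with control siRNA and 8.28, 8.36 and 7.64 with siRNA2. The groups overlapped, but every pair was lower with siRNA2, and the log2 fold change was -0.48 (limma, adjusted p = 0.0437). *NOTCH1* (A_33_P3370424) read 11.11, 10.88 and 11.20 against 10.52, 10.85 and 10.67. The siRNA2 arrays lay below the control arrays, by 0.03 in replicate 2, and the log2 fold change of -0.38 did not pass (limma, adjusted p = 0.118). The dimmer *NOTCH1* probe differed by -0.13 (limma, adjusted p = 0.449). *DTX1* differed by -0.40, *STAT5A* by -0.40 and *RAG1* by 0.71, with adjusted p-values of 0.189, 0.069 and 0.0755 from limma. *IKZF1*, *GATA3*, *TBX21* and *VPREB3* differed by -0.08, -0.06, -0.25 and -0.02, within the spread between replicates.

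In a list of 18 direct *NOTCH1* targets, 15 were tested, and 2 passed, beside 1.61% of all genes called. The 2 went in opposite directions (*IL7R* higher and *PTCRA* lower). Called or not, 8 of the 15 were higher and 7 lower, and the list median was 0.00. Under the alternative settings the median was between -0.18 and 0.05, and 7 to 10 genes were lower. The -0.18 came from the filter on all 6 arrays, which left 13 genes. Of 100 *NOTCH1*-dependent genes that the study selected for being lower in Jurkat cells with *PHF6* knockdown, 75 were tested. In ALL-SIL cells 3 of them were called, all lower, beside 1.61% of all genes. They were *IGLL1*, *FAM30A* and *LIMS2*, an adaptor of integrin adhesions that fell by 0.60 on the log2 scale. Of the 75 genes 45 were lower, called or not, and the median was -0.10 against -0.02 for all genes. Without siRNA2 replicate 1 the median was -0.06. This list was chosen by the study in another cell line.

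Genes of B cells, NK cells and the thymic T cell programme were followed in lists. These lists and those below were chosen with earlier results of these data known, so their counts are descriptions only. Of 13 tested B-lineage genes 11 were lower (7 without control replicate 1), beside 7879 of all 14408 genes. Their median was -0.05 against -0.02 for all genes, and 1, *IGLL1*, was called, beside 1.61% of all genes. Among the lower ones, *SPIB*, *CD40*, *VPREB3*, *FCRLA* and *FCER2* differed by only -0.01 to -0.05. *VPREB1*, the partner of *IGLL1* in the surrogate light chain, read 5.53, 6.87 and 5.52 against 5.37, 4.95 and 4.80, and was well above background on 2 of the 3 siRNA2 arrays, and its log2 fold change of -0.94 did not pass (limma, adjusted p = 0.121). Of 13 tested NK cell genes 11 were lower, with a median of -0.25, and 2 fell, beside 1.61% of all genes called. This median was -0.12 without replicate 1, -0.12 without siRNA2 replicate 2, -0.16 without control replicate 1, -0.16 with normexp and quantile normalisation, and -0.45 with the signal scaled to its 75th percentile. *NCR3*, an activating NK cell receptor, read 10.34, 10.32 and 9.76 with control siRNA and 9.67, 9.20 and 8.90 with siRNA2, so each siRNA2 array lay below all control arrays. The fall of *NCR3* was 0.89 on the log2 scale (limma, adjusted p = 0.012). *NKG7*, a protein of cytotoxic granules, fell by 0.49 (limma, adjusted p = 0.0365), and *GNLY* and *GZMB*, which encode granule proteins, differed by -0.49 and -0.33 without passing. Other NK cell markers (*NCAM1*, *KLRD1* and *KLRF1*) were well above background on at most 1 of the 6 arrays.

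Among 18 tested T cell surface genes 13 were lower and 1 was called, beside 1.61% of all genes called. *CD7*, the surface glycoprotein used to recognise T-ALL, read 13.46, 13.10 and 13.34 against 12.92, 12.56 and 12.24, and fell by 0.73 on the log2 scale (limma, adjusted p = 0.0325). *CD3D*, *CD3E* and *CD3G*, the chains that signal for the T cell receptor, differed by -0.13, -0.30 and -0.15, with overlapping arrays. The CD1 genes encode lipid-presenting proteins of cortical thymocytes, and 4 were tested. All 4 were higher, with log2 fold changes of 0.71 for *CD1A*, 0.52 for *CD1C*, 0.41 for *CD1B* and 0.16 for *CD1E*, and none passed. *CD1A* differed by 0.95 in replicate 1, -0.09 in replicate 2 and 1.28 in replicate 3, so the direction was not shared by all pairs, and without replicate 3 the median of the 4 was 0.30 in place of 0.47. The 6 tested GIMAP genes, small GTPases of lymphocyte survival, were all lower in the mean with a median of -0.25 and none passed. The median of the GIMAP genes was 0.00 in the replicate 3 pair, and it was -0.12 without replicate 2 and -0.14 without control replicate 2, each with 4 of 6 lower.

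Among 17 tested genes of *KLF2* and trafficking receptors, *KLF2* rose and *CXCR3* fell, and the list median was 0.07. Of 21 tested genes of the IL7 receptor, JAK and STAT5 axis *IL7R* alone was called and 13 were lower, with a median of -0.06. Over all tested genes 1.61% were called, 7879 of 14408 were lower and the median was -0.02. Beside 1.61% of all genes, 1 of 37 tested interferon-induced genes was called. It was *IFITM2*, a membrane protein that restricts viral entry, which fell by 0.76 on the log2 scale (limma, adjusted p = 0.00923). The related *IFITM1* and *IFITM3* differed by -0.52 and -0.38 (limma, adjusted p = 0.0512 and 0.0582). Because these genes are similar in sequence, their probes may not be independent. Of the 37 genes 20 were higher and 17 lower, called or not, with a median of 0.02.

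Genes of cholesterol synthesis and of glycolysis were lower almost throughout, though few or none passed one by one. Like the other lists, both were chosen with earlier results of these data known, so their counts are descriptions only. Cholesterol synthesis runs from acetyl-CoA through squalene to cholesterol under the transcription factor encoded by *SREBF2*. All 22 tested genes of this list were lower, with a median of -0.23 against -0.02 for all genes. Of the 22, 2 were called, beside 1.61% of all genes. *DHCR7*, the reductase of a last step of the pathway, read 11.53, 11.39 and 11.74 with control siRNA and 10.98, 10.70 and 11.29 with siRNA2, without overlap between the groups. It fell by 0.56 on the log2 scale (limma, adjusted p = 0.0307). *FDFT1*, the squalene synthase gene, and *SREBF2* differed by -0.38 and -0.34, and neither passed. The median of the list was -0.22, -0.39 and -0.16 in the 3 pairs, and between -0.26 and -0.18 under the alternative settings, with 18 to 22 of the genes lower.

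Of 28 tested genes of glycolysis and the hypoxia response 27 were lower and none was called, while 7879 of all 14408 genes were lower. An unadjusted p under 0.05 was found for 19 of the 28 and for 2642 of all genes, and the arrays did not overlap for 14 of the 28 and for 9.62% of all genes. The list median was -0.33, the lowest of the 32 lists, and it was -0.24, -0.18 and -0.44 in the 3 pairs. Since the lists were chosen with earlier results of these data known, this rank and these counts are descriptions only. *PGK1*, the phosphoglycerate kinase of glycolysis, read 16.79, 16.84 and 17.20 with control siRNA and 16.22, 16.59 and 16.71 with siRNA2. Its log2 fold change was -0.44 (limma, adjusted p = 0.0559). *HK2*, a hexokinase, and *BHLHE40*, a transcriptional repressor induced by hypoxia, differed by -0.49 and -0.55, with adjusted p-values of 0.0769 and 0.0932 from limma. *ADM*, which encodes the hormone adrenomedullin, differed by -0.75 (limma, adjusted p = 0.0697). *PFKFB4*, a glycolytic regulator, was outside the list and was singled out after its values were seen. It fell by 0.88 on the log2 scale (limma, adjusted p = 0.012). Under the alternative settings the median of the list was between -0.38 and -0.23, and 25 to 27 genes were lower.

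Because these genes were lower together, the sequence just before their starts was read from the RefSeq promoter table, which is on build GRCh38.p14 and holds 25 of the 28 genes. The letters ACGTG, the core of the site of hypoxia-inducible factors, were searched on both strands in the 250 bases before each start, where CACGTG counts once on each strand. They occurred in 12 of 25 genes (48.0%), in 22.6% of the promoters of all tested genes in the table, and in 18.7% of all 27305 promoters. The list was drawn up with known targets of these factors in it, so the share is a description only. The median log2 fold change was -0.27 for the 12 genes with the letters and -0.34 for the 13 without. The windows of the 4 genes with the letters and the most negative log2 fold changes are shown to let the matches be seen in place, 5′ to 3′ along the strand of the gene, with the matches in capitals. For cholesterol synthesis the letters TCACNCCAC, which resemble the sterol response element, occurred on either strand in 1 of 17 genes and in 0.875% of all promoters, and that gene was *SREBF2*.
PGK1, chrX:78103998-78104247, plus strand: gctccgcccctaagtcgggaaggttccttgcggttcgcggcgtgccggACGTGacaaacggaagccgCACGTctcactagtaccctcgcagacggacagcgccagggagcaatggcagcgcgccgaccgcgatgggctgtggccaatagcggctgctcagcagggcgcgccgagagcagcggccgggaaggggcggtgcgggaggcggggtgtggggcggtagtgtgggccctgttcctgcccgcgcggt
HK2, chr2:74833877-74834126, plus strand: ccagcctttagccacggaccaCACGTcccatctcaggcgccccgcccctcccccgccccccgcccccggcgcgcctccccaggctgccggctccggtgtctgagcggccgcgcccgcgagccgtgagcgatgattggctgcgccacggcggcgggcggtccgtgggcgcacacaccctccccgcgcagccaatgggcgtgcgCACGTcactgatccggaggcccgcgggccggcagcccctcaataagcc
BHLHE40, chr3:4979187-4979436, plus strand: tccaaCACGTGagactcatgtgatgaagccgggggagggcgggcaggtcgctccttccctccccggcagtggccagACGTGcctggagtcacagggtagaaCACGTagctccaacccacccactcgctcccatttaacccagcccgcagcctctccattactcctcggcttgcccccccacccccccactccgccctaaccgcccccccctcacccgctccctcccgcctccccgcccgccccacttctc
GPI, chr19:34364742-34364991, plus strand: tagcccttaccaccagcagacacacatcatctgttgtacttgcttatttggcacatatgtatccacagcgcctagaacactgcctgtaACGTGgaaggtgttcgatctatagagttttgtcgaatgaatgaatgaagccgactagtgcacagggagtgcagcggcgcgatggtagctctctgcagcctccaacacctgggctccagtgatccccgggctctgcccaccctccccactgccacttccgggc
SREBF2, chr22:41832855-41833104, plus strand: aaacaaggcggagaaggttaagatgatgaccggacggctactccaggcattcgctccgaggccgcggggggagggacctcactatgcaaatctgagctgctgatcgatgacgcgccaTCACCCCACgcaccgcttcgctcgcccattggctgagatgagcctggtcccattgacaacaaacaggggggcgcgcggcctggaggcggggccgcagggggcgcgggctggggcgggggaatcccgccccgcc

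In these windows *BHLHE40* held 4 matches, of which 2 came from 1 palindrome, *PGK1* and *HK2* held 2 each, and *GPI*, the glucose-6-phosphate isomerase gene, held 1. A match shows that the letters are there, and binding was not measured.

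Ribosome biogenesis genes make and process ribosomal RNA. Of 38 tested, 32 were lower, beside 7879 of all 14408 genes, and none was called. The list was chosen with earlier results of these data known, so its counts are descriptions only. Its median was -0.19 against -0.02 for all genes, and it was -0.11, -0.37 and -0.08 in the 3 pairs. Without replicate 2, its control array or its siRNA2 array the median was -0.10, -0.12 and -0.12. *NOLC1* and *BOP1*, which act in the nucleolus, differed by -0.48 and -0.43 (limma, adjusted p = 0.0514 for each). Outside the list and singled out after their values were seen, *POLR1G*, a subunit of RNA polymerase I, and *SRM*, the spermidine synthase gene, fell by 0.53 and 0.51 on the log2 scale. In the actin list of 35 tested genes, also chosen with earlier results of these data known, 4 were called, beside 1.61% of all genes. *CTTN* rose, while *SYNPO*, *LGALS1* and *PFN1* fell by 0.95, 0.77 and 0.54. *PFN1* encodes profilin, which delivers actin monomers to growing filaments, *SYNPO* encodes the actin-associated synaptopodin, and *LGALS1* the lectin galectin-1. The other 31 genes were not called, and 27 of the 35 were lower, beside 7879 of all 14408 genes, with a median of -0.14. Without control replicate 1 the median was -0.08 and 1 gene was called, and without control replicate 2 it was -0.22, also with 1.

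Cell cycle genes differed little in the mean. None of 36 tested genes of DNA replication and none of 35 of mitosis was called, and their medians were -0.04 and -0.07. Of the mitosis genes 27 were lower, beside 7879 of all 14408 genes, and their median was 0.13, -0.22 and -0.06 in the 3 pairs. Without replicate 1 the mitosis median was -0.15 with 31 of 35 lower, and without replicate 2 it was 0.02 with 15 lower. Among 22 tested p53 targets *TP53INP1* rose by 0.73 (limma, adjusted p = 0.0356), and the list median was -0.01. One gene each was called in the unfolded protein response, where *ERN1*, a sensor of the endoplasmic reticulum, rose by 0.72, in the immediate early genes, where *IER3* rose by 0.72, and in the NF-kB pathway, where *TRAF1*, a signalling adaptor, fell by 0.60. Apart from *PHF6* itself, none of the 14 other tested genes of the NuRD list was called, nor any of 32 Polycomb and DNA methylation genes or 26 T-lineage transcription factors. *TLX1*, the homeobox oncogene of this line, differed by -0.17 (limma, adjusted p = 0.354). None of 19 BCL2 family genes, 21 histone genes, 18 erythroid genes, 27 genes of the *ATF4* response, 33 of T cell receptor signalling or 15 of V(D)J recombination was called. In the list of progenitor and myeloid genes 1 of 15 was called, *PRSS57*. The share called over all tested genes, beside which these counts stand, was 1.61%.

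The heat shock gene *HSPA1A* varied widely between replicates. This gene of the inducible HSP70 chaperone read 5.09, 9.81 and 7.10 on the control arrays of replicates 1, 2 and 3, and 5.26, 13.12 and 9.56 on the siRNA2 arrays. Its differences were 0.17, 3.31 and 2.46, and the log2 fold change of 1.98 did not pass (limma, adjusted p = 0.119). *HSPA1B*, a nearly identical gene with its own probe that was added after its values were seen, read 10.02, 14.68 and 12.07 against 9.75, 15.33 and 12.29. Both genes were lowest in replicate 1 and highest in replicate 2 in each group. None of the 21 tested heat shock genes was called.

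Of the 22 genes called in the lists besides *PHF6*, 2 passed without replicate 1 (*IL7R* and *PRSS57*), 0 without replicate 2 and 0 without the block, where the adjusted p was between 0.131 and 0.852. The lists overlap in a few genes, and the 22 count each gene once.

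**Figure D3:**
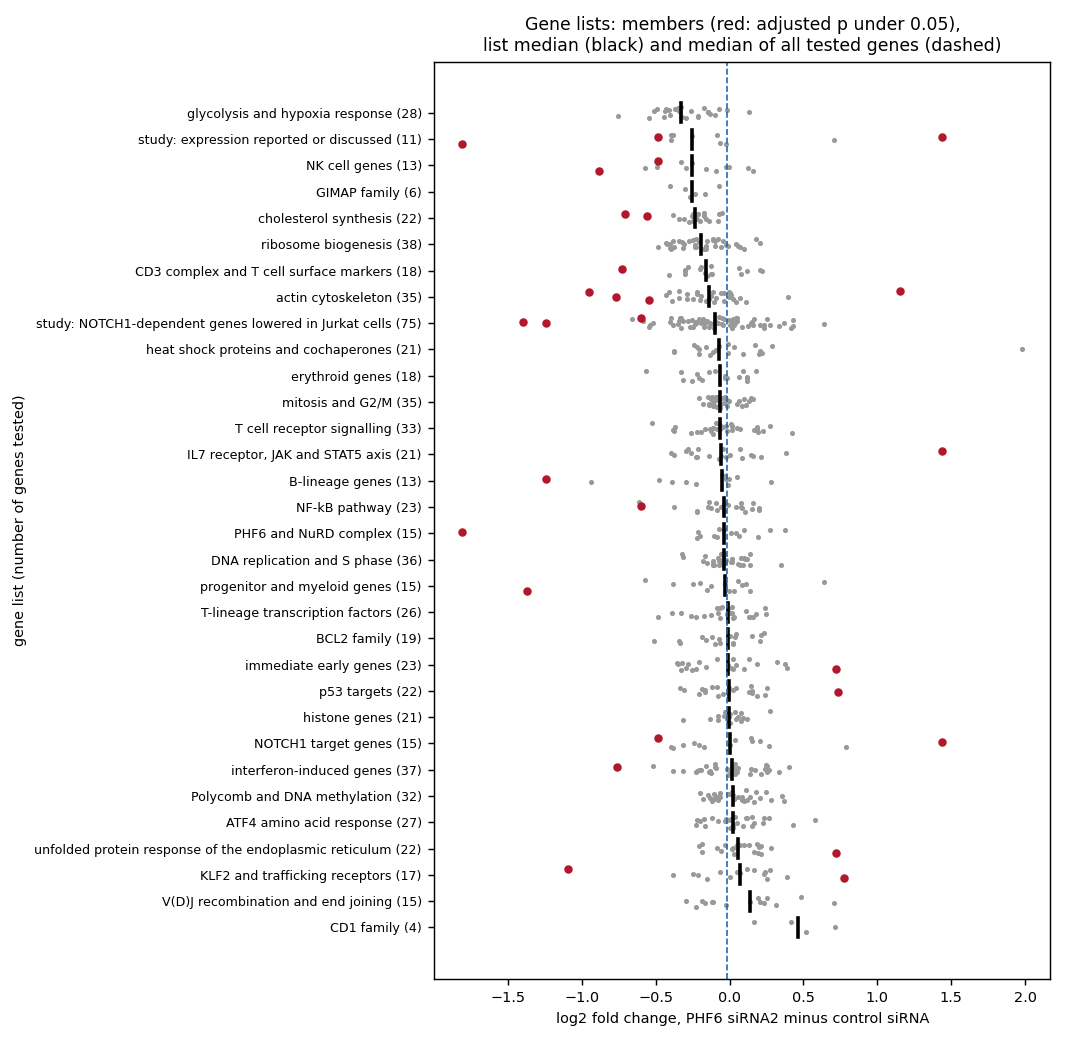
Log2 fold change of every tested member of 32 gene lists with *PHF6* siRNA2, 1 point per gene, with called genes in red, the list median as a black bar and the median of all tested genes as a dashed line. Glycolysis and hypoxia genes, GIMAP genes and cholesterol synthesis genes lie mostly left of the dashed line, with medians of -0.33, -0.25 and -0.23, and the 4 CD1 genes lie to its right.

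Of 8614 tested lncRNA probes 156 were called (1.81%), 110 higher and 46 lower, and of 23829 other probes 389 were called (1.63%), 219 higher and 170 lower. Called or not, 4819 of the lncRNA probes and 11579 of the others were higher, and the difference between the kinds of probe was not tested. Of 3951 tested probes that rest on assembled transcripts alone 74 were called (1.87%), 55 of them higher. For Ensembl transcripts alone 70 of 3863 were called (1.81%), 45 of them higher. For those in both annotations 12 of 775 were called (1.55%), 10 of them higher. These shares lie near the 1.68% of all probes, and called or not, 2282, 2101 and 425 of the probes were higher. The largest rise was that of a probe for ENST00000436303 (CUST_7394_PI427704219). It read 6.78, 6.6 and 6.90 on the control arrays and 8.58, 8.43 and 7.97 on the siRNA2 arrays, a log2 fold change of 1.57 (limma, adjusted p = 0.00656, and 0.04 without the block). CUST_8787_PI427704219 and CUST_2771_PI427704219, which rest on assembled transcripts, rose by 1.17 and 1.11. The largest fall was that of CUST_17829_PI427704219, at 10.31, 9.74 and 10.42 against 8.84, 8.46 and 9.14, a log2 fold change of -1.34 (limma, adjusted p = 0.00103). CUST_13514_PI427704219 and CUST_13815_PI427704219 each fell by 0.93 on the log2 scale. Of these 6 probes 1 passed without replicate 1 and 0 without replicate 2.

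Transcripts named for lying in an intron of another gene were among the largest rises, and they were singled out as a group after their values were seen. Of 9 that were tested 4 were called, all higher, beside 0.708% of all genes called higher. These were *RUNX1-IT1*, *ASAP1-IT1*, *SND1-IT1* and *GABPB1-IT1*. All 9 mean differences were above 0, with a median of 0.49, and so were those of 6529 of all 14408 genes. Because the group was picked on such rises, its counts are a description only. *RUNX1-IT1*, from an intron of the blood transcription factor gene *RUNX1*, read 8.85, 9.20 and 8.79 with control siRNA and 10.44, 10.76 and 9.42 with siRNA2. It rose by 1.26 on the log2 scale (limma, adjusted p = 0.0145), by 1.59 and 1.56 on the first slide and by 0.63 on the other. *ASAP1-IT1* rose by 2.06, 1.19 and 0.49 in the 3 pairs, and *SND1-IT1* by 1.61, 1.52 and 0.56. *ERC2-IT1* and *ANP32A-IT1* were higher in replicates 1 and 2 and lower in replicate 3.  *GABPB1-IT1* was alike in the pairs, at 0.50, 0.45 and 0.53. Of 156 tested antisense transcripts 2 were called higher and 2 lower, beside 0.708% and 0.902% of all genes, with a median of 0.00. Genes called higher that code for proteins had a median length of 33.9 kb in the RefSeq table, those called lower 17.4 kb, and all tested ones 26.5 kb.

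**Figure D4:**
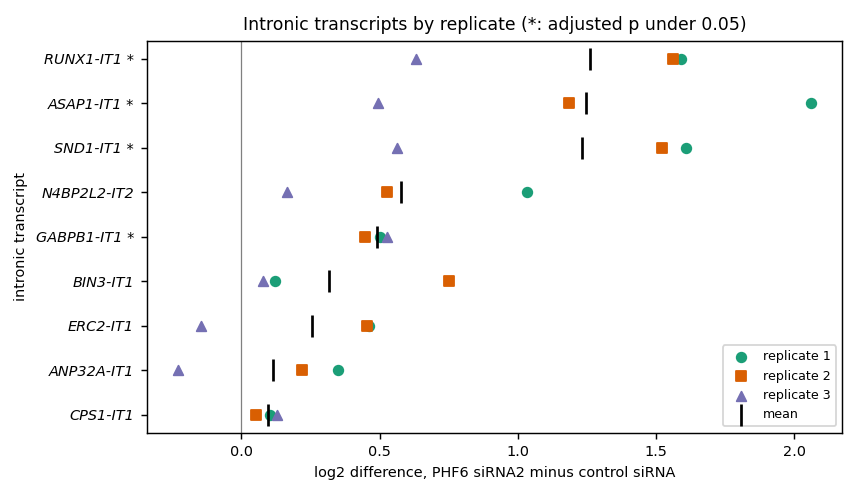
Difference between *PHF6* siRNA2 and control siRNA in each replicate number for 9 transcripts named for an intron, in log2 units, with the mean as a black bar and a star for an adjusted p under 0.05. In *RUNX1-IT1*, *ASAP1-IT1* and *SND1-IT1* replicate 3, which lay on the other slide, is well below replicates 1 and 2.

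The 3 samples with *PHF6* siRNA1 shared their control arrays with siRNA2, so the comparisons of the siRNAs with control are not independent and are given side by side, with the direct difference tested as well. *PHF6* differed from control by -1.61 with siRNA1 and -1.81 with siRNA2, and between the siRNAs by -0.20 (limma, adjusted p = 0.575). *IGLL1* differed by -1.13 with siRNA1, *CHDH* by -1.48, *PRSS57* by -1.52, *CXCR3* by -1.40, *IL7R* by 1.03 and *CTTN* by 0.94. *LY6E* differed by -0.58 with siRNA1 against -1.14 with siRNA2, and this gap of -0.56 did not pass (limma, adjusted p = 0.162). Of the 24 genes with the largest changes, 1 was called between the siRNAs. It was *SCN3A*, at -0.17 with siRNA1 against 1.41 with siRNA2, a difference of 1.58 (limma, SE 0.15, adjusted p = 0.0136).

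Limma called 9 probes between the siRNAs, 0.0277% of those tested, of which 5 were higher with siRNA2 and 4 lower. For 3 of them, *SCN3A*, *SYNPO* and CUST_7394_PI427704219, siRNA2 itself differed from control. *SYNPO* read 8.73, 8.27 and 8.58 with control siRNA, 7.65, 7.35 and 7.72 with siRNA2, and 9.57, 9.15 and 8.67 with siRNA1. CUST_7394_PI427704219 read 6.69, 6.64 and 7.06 with siRNA1, close to the control arrays, and was higher with siRNA2 by 1.53 (limma, adjusted p = 0.0273). For the other 6 probes the log2 fold change of siRNA2 against control was between -0.46 and 0.10 and not called, and that of siRNA1 was called. They included *MROH7* and *ECEL1*, with log2 fold changes of 1.21 each with siRNA1. Dropping the block left 0 limma calls between the siRNAs, with 756 under 0.05 before adjustment, and leaving out replicate 2 also left 0, with 3989. It called 1 without replicate 1, 18 without replicate 3, 2 without control replicate 1, 3 without siRNA2 replicate 1 and 3 without siRNA2 replicate 2.

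**Figure D5:**
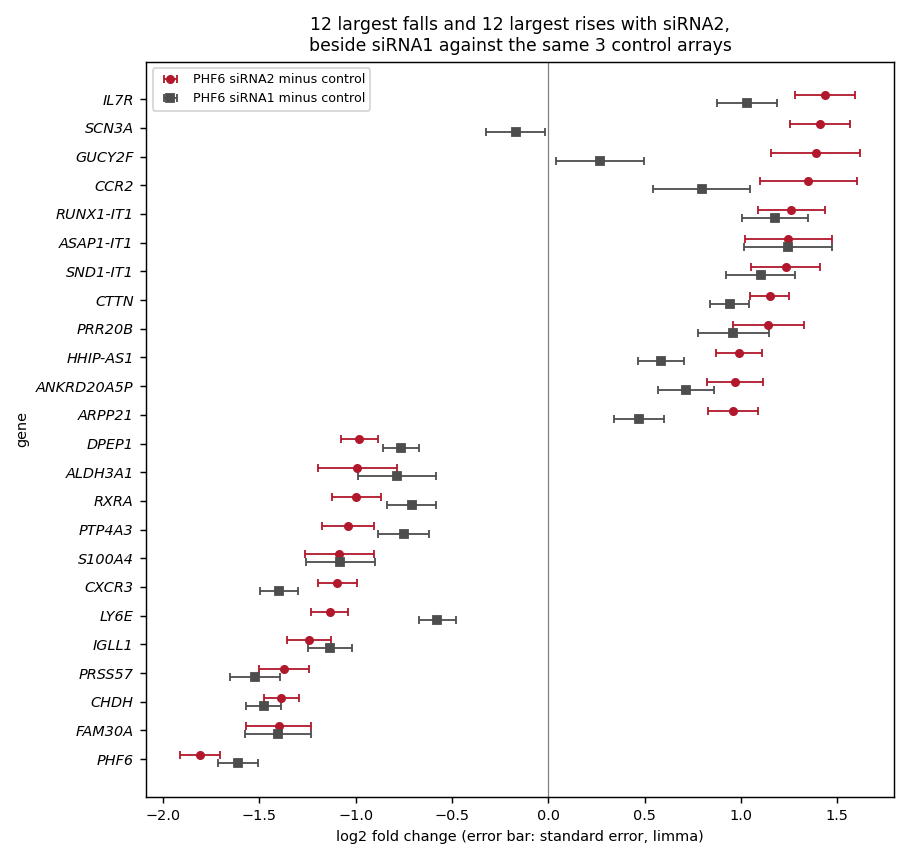
Log2 fold change against control siRNA, with its standard error from limma, for the 12 largest rises and 12 largest falls with *PHF6* siRNA2 (red circles), beside the value of *PHF6* siRNA1 (grey squares) against the same 3 control arrays. The genes were chosen on siRNA2, which favours larger values for it, and *SCN3A* is the gene whose siRNA1 value, -0.17, lies on the other side of 0.

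The cells read as the T-ALL line of their label in both groups. All 10 of its markers, among them *CD3D*, *CD7*, *LCK* and *TLX1*, were well above background on all 6 arrays, and 2 of them were called (*CD7* and *PTCRA*, both lower). Their summed level was 17.31 to 17.51 in log2 units on the control arrays and 17.23 to 17.28 on the siRNA2 arrays. B cell markers were tested for 2 of 4 genes, with a summed level of 12.41 to 12.86 against 12.13 to 12.43, while *MS4A1* and *PAX5* were above background on at most 2 arrays. The erythroid sum, from 3 of 4 genes without *HBB*, was 10.65 to 11.06 against 10.52 to 10.79. Monocyte markers (4 of 6 tested) summed to 8.01 to 8.13 against 7.95 to 8.13, and *CD163* was above background on 0 arrays. In the stromal and epithelial list *KRT18*, a keratin also made in many transformed cells, rose by 0.76 (limma, adjusted p = 0.0336), while *COL3A1* and *EPCAM* were above background on 0 arrays. The sum of its 2 tested genes of 5 was 8.63 to 9.04 against 8.89 to 9.93. For NK cells 1 of 4 markers was tested, *NCR1*, at 5.64 to 6.45 against 5.71 to 6.68. Whether any of these shifts has a part in the changes above was not tested, and in bulk RNA fewer cells of a type and less RNA per cell cannot be told apart. Between 30221 and 32627 probes were well above background on the control arrays and between 32022 and 33742 on the siRNA2 arrays. No spot was saturated. Precision is set by the small number of arrays.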

How the data were processed

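The authors read each array with Agilent Feature Extraction (version 10.5.1.1 in the file headers, 9.1 in the submitters' processing notes), which gives an intensity per spot, and deposited these intensities with 0 or 1 flags (score) for spots well above background or outlying. They also deposited a table of normalised log2 values, made with VSN according to the study's methods, which is the main measurement here, and each of its 9 columns matched its own array best among bright probes. Probes were named by matching transcript identifiers to RefSeq (25724 of 57176), and 4 list genes found no current symbol. Groups came from the sample labels. All 9 arrays were fitted with limma 3.58.1 in R 4.3.3 (lmFit and eBayes), with replicate number as a fixed block, 4 residual and 5.65 prior degrees of freedom, and Benjamini-Hochberg adjustment over all tested probes at 0.05. Samples with the same number deviated from their group means together (r = 0.307 to 0.751 in 9 pairs, and -0.564 to 0.126 in 18 other pairs). The numbers, taken from the sample titles, were used to pair the samples. Deviations within a group sum to 0, so the 18 other pairs are not a separate contrast. Replicate 3 lay on its own slide, so slide and replicate cannot be told apart there. Genes named are those the study discusses, the 12 largest rises and falls past the threshold with all pairs and the brighter group's arrays in accord, the 3 most changed lncRNA probes each way, up to 4 members per list by p, probes called between the siRNAs (up to 5 each way) and markers. The members and the 32 lists were chosen with earlier results of these data known. The alternatives changed the block, the samples, the normalisation, the filter and the variance prior, left out outlier-marked probes, or left out each replicate or array. One called gene of a list is not reported here.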

Additional observations from a re-analysis of the deposited data

Results flagged for a closer look

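The direct difference between siRNA2 and siRNA1 passed the threshold at 9 probes in limma with the replicate block. It passed at 0 probes without the block, with the slide as block, with the signal scaled to its 75th percentile, and without replicate 2. On the log2 scale siRNA2 minus siRNA1 was 1.58 for *SCN3A*, 1.53 for CUST_7394_PI427704219, 1.5 for CUST_1820_PI427704219, 1.26 for CUST_22178_PI427704219 and 0.74 for A_33_P3355567. It was -1.67 for *MROH7*, -1.55 for *SYNPO*, -1.26 for A_33_P3299130 and -1.24 for *ECEL1*. Each kept its direction under all 17 alternatives that include siRNA1, and they passed in 4 to 12 of these. Groups of 3 arrays are too small for a test of single outlying arrays.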

How the results depend on the processing

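Over the alternatives the number of probes called was 4 without the replicate block (1 higher, 3 lower), 45 with only the 6 arrays (15 and 30), 78 with the processed signal scaled to its 75th percentile (46 and 32), 841 with normexp and quantile normalisation (490 and 351), 71 without a filter (28 and 43), 8 with the slide as block (2 and 6) and 1030 with a trend and robust variance prior (548 and 482). It was 3 with only the 6 arrays and no replicate block (0 higher and 3 lower, 1806 at an unadjusted p under 0.05), a setting chosen after seeing the data. Leaving out a replicate number or an array gave 4 to 1153 probes, 0 to 936 higher and 4 to 302 lower. Between the siRNAs it gave 0 to 18, and the count was 0 without the replicate block, 0 at the 75th percentile (2437 before adjustment), 0 with the slide as block (1795) and 4 without a filter. A filter on all 6 arrays (733) and leaving out outlier-marked probes (574) changed the count less. Of the genes and probes that were followed over the alternatives, those called against control kept their direction throughout. Their calls held in 445 cases and were lost in 464. Direction reversed only for values that had not passed, which were *BNIP3* (0.11 at the 75th percentile, and -0.15 to 0.065 when a replicate or array was left out), *CD1E* (-0.0096 to 0.48), *GATA3* (-0.16 to 0.0145) and *VPREB3* (-0.17 to 0.071), the last 3 over the same leave-outs. The direction turned for *BNIP3* without replicate 3 or its control array, for *CD1E* without replicate 3, for *GATA3* without replicate 2 or its siRNA2 array, and for *VPREB3* without replicate 1, replicate 3 or any of their single arrays. The causes were not tested. Precision is limited by 3 arrays a group, and many probes were near background, with a median intensity of 41.5 to 51.5 against 23.0 to 26.0 for negative controls.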
